A study of Mus musculus with 6 samples.

Results

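Basement membrane, microfibril and matricellular genes were followed through single-nucleus RNA sequencing of rd10 mouse retinas. The set was a list of 39 symbols among the 32285 genes of the deposited matrices, and each symbol was found once. It held 9 laminin chains, 4 nidogens and basement membrane proteoglycans, 6 fibulins, 6 fibrillins and latent TGF-beta binding proteins, 2 other matrix glycoproteins, 8 tenascins, thrombospondins, SPARC family members and periostin, 3 lecticans, and reelin. The rd10 strain (B6.CXB1-Pde6b-rd10/J) carries a mutation of the rod phosphodiesterase gene Pde6b, and its rods degenerate after birth. All mice in both groups carried it. Mice received 1 intravitreal injection into 1 eye at postnatal day 18, either 20 ng recombinant IL-27 or saline, the fellow eye was not injected, and retinas were taken at postnatal day 20. Saline was represented by 3 libraries, numbered 1, 2 and 6, and IL-27 by 3 libraries, numbered 4, 5 and 10. No untreated or wild-type retina was analysed here, and the study's methods give 3 per group without saying whether a library was 1 animal, so the spread between libraries may be partly technical.

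Basement membranes are thin sheets in which laminin trimers, each built of an alpha, a beta and a gamma chain, are joined to collagen IV by nidogens and by the heparan sulfate proteoglycans perlecan and agrin. In the eye they form the inner limiting membrane at the endfeet of Muller glia, the sleeve around vessels and the base of the ciliary epithelium. Fibrillins polymerise into microfibrils, which make up the zonule that ciliary epithelium spins to the lens, and latent TGF-beta binding proteins and fibulins dock on these fibres. Matricellular proteins such as tenascins, thrombospondins and SPARC modulate how cells adhere to matrix, and lecticans and reelin belong to the matrix of neural tissue.

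The 6 libraries held 36678332 to 48260748 unique molecular identifiers (UMIs, counted RNA molecules), and 51933 nuclei were retained of 56634 barcodes. The median was 2785 to 3780.5 UMIs per retained nucleus, lowest in IL-27 replicate 10, and 116 to 136 barcodes of a library also occurred in another. Clusters were named from fixed marker lists as rods, cones, bipolar cells (BC), amacrine cells (AC), horizontal cells (HC), retinal ganglion cells (RGC), Muller glia, astrocytes, microglia, endothelial cells, and pericytes and smooth muscle. A further 6086 nuclei stayed unnamed and 995 were in mixed clusters, and no fibroblast or retinal pigment epithelium cluster was found. The Muller class held 5415 nuclei, of which 673 formed a separate population, called ciliary-like here. These nuclei were the cluster of a second clustering of the Muller class that was highest in Frmpd4, Csmd3 and Nox4, and none of the 39 genes entered either clustering. The study reports Frmpd4, Csmd3 and Nox4, like Fbln1 and reelin, as raised in its saline-specific Muller population from these same data. The choice of the cluster was therefore not independent of treatment, nor of the levels of Fbln1 and Reln.

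The ciliary-like name was checked against marker lists, although 659 of the 673 nuclei had lain in a first cluster that the ciliary epithelium list itself named. Of 13 measured ciliary epithelium markers, 12 had a higher mean in ciliary-like than in the other Muller nuclei, 9 of them in at least 5 of 6 libraries. Optc, which encodes opticin of the vitreous, stood at 419 ± 235 against 3.68 ± 2.67 counts per 1e6 UMIs of that cell type (CPM, mean ± SD over 6 libraries). Zic1, a ciliary margin transcription factor, stood at 326 ± 215 against 11.9 ± 1.34 CPM. Each of 10 Muller markers had a lower mean, with Rlbp1, the retinaldehyde-binding protein of Muller glia, at 56.1 ± 37.5 against 339 ± 59.9 CPM. Fibroblast markers also had higher means, 8 of 8, but only 3 of 8 in at least 5 libraries. These 3 were the transporter gene Slc6a13 at 490 ± 295 against 0.384 ± 0.308 CPM, the collagen gene Col1a2 at 68.6 ± 21.4 against 5.81 ± 1.76 CPM and the small proteoglycan gene Ogn at 70.1 ± 42.4 against 2.35 ± 1.28 CPM. The other 5 (Col1a1, Col3a1, Dcn, Lum and Pdgfra) had means of 1.57 to 5.49 CPM in ciliary-like nuclei. No retinal pigment epithelium marker of 11 was higher in at least 5 libraries, and Rpe65 was at 0.218 ± 0.534 CPM. These values describe a cluster and were not tested. IL-27 replicate 10 stood apart from the other IL-27 libraries in its number of ciliary-like nuclei, and results that rest on it are given with and without it.

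The source of each gene was read from its level in 12 cell types, as the mean over 6 libraries of CPM in the summed nuclei. The 39 genes were spread over 9 types. Ciliary-like nuclei were the highest type for 12 of them, endothelial cells for 8, pericytes and smooth muscle for 8, astrocytes for 3, HC, RGC and other Muller nuclei for 2 each, and cones and microglia for 1 each. For 15 of the 39 genes the 6 libraries of the highest type did not overlap those of the second type. Neither this count nor the counts per type were made over all genes, so they have no background. Another 6 genes (Lamb2, Fbln7, Efemp2, Thbs2, Thbs4 and Postn) had under 20 UMIs in their highest type, so their order was not resolved at this depth. Unnamed and mixed nuclei, which were not among the 12 types, held a median of 11.7% of a gene's UMIs. Their share was as much as 76.0% for the laminin gamma chain Lamc3, 68.3% for Thbs4 and 57.9% for Tnc.

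**Figure D1:**
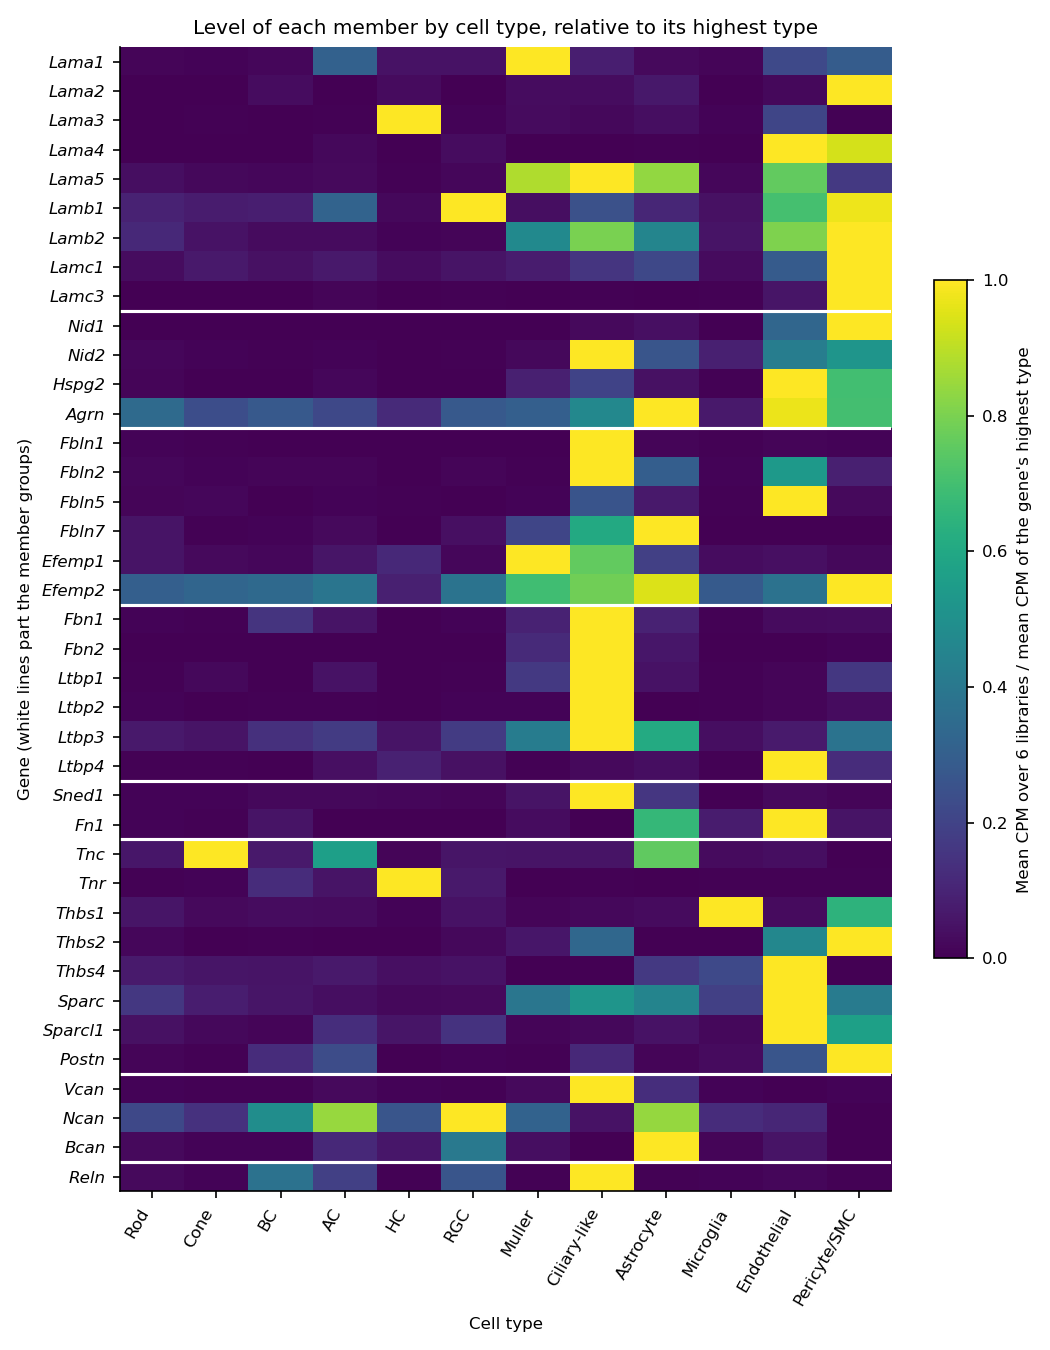
Level of each of the 39 genes (rows) in 12 cell types (columns), as the mean CPM over 6 libraries divided by the mean CPM of the gene's highest type. Fibrillins, the latent TGF-beta binding proteins other than Ltbp4, Fbln1 and Fbln2 peak in the ciliary-like column, whereas 5 of 9 laminin chains peak in vascular columns, and Lama3 and Tnr peak in HC.

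Among laminin chains, vascular cells held the highest level of 5 of 9 genes. Lama2 (chromosome 10, 26980036 to 27619758, minus strand; GENCODE M21 gene positions on GRCm38), the alpha chain of muscle and vessel laminins, stood at 1533, 2471 and 1409 CPM in the pericytes and smooth muscle of the 3 saline libraries, and with IL-27 at 1545, 1762 and 1297 CPM. All 6 values lay above the astrocyte range of 55.8 to 181 CPM, the second type. Lamc1 (chromosome 1, 153218922 to 153332786, minus strand), the gamma chain that most laminins share, was also highest there at 929 ± 121 CPM, against 268 in endothelial cells. Lama4, the endothelial alpha chain, reached 565 ± 159 CPM in endothelial cells and 529 CPM in pericytes and smooth muscle, which did not differ beyond their spread. Lama1 (chromosome 17, 67697259 to 67822647, plus strand), the alpha chain of laminin-111 and a component of the inner limiting membrane, was highest in Muller nuclei other than the ciliary-like at 127 ± 13.5 CPM. In ciliary-like nuclei its level was 0.0842 of that of the other Muller nuclei over all 6 libraries and 0.0205 in the saline libraries. It was 1.22 to 3.92 CPM there with saline, and 21.4, 0 and 34.5 CPM with IL-27, on 17 UMIs in all. Lama3, the alpha chain of laminin-332, was highest in HC at 402 ± 73.5 CPM, 4.80-fold over endothelial cells. Lama5 did not differ between ciliary-like and other Muller nuclei beyond its spread (73.2 ± 15.9 and 64.5 CPM), and Lamb1 was alike in RGC and pericytes (93.8 ± 8.23 and 91.4 CPM).

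Nidogens and proteoglycans divided between vessels, astrocytes and ciliary-like nuclei. Nid1, the main nidogen, was highest in pericytes and smooth muscle at 429 ± 179 CPM. Nid2 (chromosome 14, 19751265 to 19811787, plus strand), its paralog, was highest in ciliary-like nuclei at 76.6 ± 50.8 CPM, and those nuclei held 53.9% of all its UMIs. Its range there, 0 to 143 CPM, overlapped pericytes and smooth muscle (0 to 103 CPM). Hspg2, which encodes perlecan, was highest in endothelial cells at 116 ± 43.2 CPM. Agrn (chromosome 4, 156165290 to 156197488, minus strand), which encodes agrin, was found in every type, from 18.4 CPM in microglia to 277 ± 43.8 CPM in astrocytes, and astrocytes did not differ from endothelial cells (269 CPM) beyond the spread.

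Fibulins held the most concentrated gene of the set. Fbln1 (chromosome 15, 85205949 to 85286535, plus strand), which encodes a fibulin that binds fibronectin and basement membrane proteins, stood at 1095 ± 686 CPM in ciliary-like nuclei and 78.1-fold lower in the second type, astrocytes. The 673 ciliary-like nuclei held 80.4% of its UMIs. Fbln2 was also highest there in the mean, at 31.9 ± 20.7 CPM, but overlapped endothelial cells (0 to 46.3 CPM). Unnamed and mixed nuclei held 46.8% of its UMIs and ciliary-like nuclei 29.5%. Fbln5, which takes part in elastic fibre assembly, was highest in endothelial cells at 112 ± 97.1 CPM with ciliary-like nuclei second at 29.3 CPM. Efemp1 (chromosome 11, 28853204 to 28926743, plus strand), which encodes fibulin-3, differed from Fbln1 in its source: it was highest in the other Muller nuclei at 456 ± 55.0 CPM, and ciliary-like nuclei at 346 CPM did not differ from them beyond the spread.

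Fibrillins and latent TGF-beta binding proteins were highest in ciliary-like nuclei in 5 of 6 cases. Fbn2, a microfibril backbone gene, stood there at 1037 ± 266 CPM, 8.28-fold over the other Muller nuclei, and Fbn1 (chromosome 2, 125300594 to 125507993, minus strand) at 555 ± 390 CPM, with BC second at 84.1 CPM. The Fbn1 range of 40.9 to 960 CPM overlapped the 75.6 to 94.0 CPM of BC. BC held 42.8% of Fbn1 UMIs and ciliary-like nuclei 19.8%. Ltbp1 (chromosome 17, 75005568 to 75392512, plus strand), which holds latent TGF-beta in the matrix, stood at 860 ± 458 CPM, 6.05-fold over the other Muller nuclei. Ltbp2 (chromosome 12, 84783212 to 84876532, minus strand), a component of zonule microfibrils, stood at 137 ± 93.6 CPM, and ciliary-like nuclei held 70.8% of its UMIs. Ltbp2 and Ltbp3 also overlapped their second types. Ltbp4 alone in this group was highest in endothelial cells, at 127 ± 68.6 CPM.

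Sned1 (chromosome 1, 93235841 to 93301065, plus strand), a matrix glycoprotein gene, stood at 1780 ± 830 CPM in ciliary-like nuclei, 6.28-fold over astrocytes. Fn1 (chromosome 1, 71585520 to 71653200, minus strand), which encodes fibronectin, showed the opposite distribution, with 1113 ± 232 CPM in endothelial cells, 743 CPM in astrocytes and 3.62 CPM in ciliary-like nuclei. Tnr (chromosome 1, 159523769 to 159931729, plus strand), the tenascin of perineuronal matrix, reached 3642 ± 301 CPM in HC, 7.97-fold over BC. Tnc, a tenascin induced in injured tissue, was highest among the 12 named types in cones at 79.4 ± 23.0 CPM, which overlapped astrocytes at 59.9 CPM. Unnamed and mixed nuclei, which were not compared, held 57.9% of its UMIs. Sparc (chromosome 11, 55394500 to 55423183, minus strand) and its relative Sparcl1 were highest in endothelial cells at 644 ± 99.0 and 629 ± 137 CPM. Thbs1, an angiogenesis inhibitor, was highest in microglia at 71.0 ± 45.4 CPM. Among lecticans, Vcan (chromosome 13, 89655312 to 89742509, minus strand), the versican of the vitreous and loose matrix, was highest in ciliary-like nuclei at 542 ± 145 CPM, Bcan in astrocytes at 29.3 ± 8.91 CPM, and Ncan (chromosome 8, 70093085 to 70120873, minus strand) in RGC at 16.4 ± 2.10 CPM, close to AC. Reln (chromosome 5, 21884454 to 22344702, minus strand), the secreted guidance protein of migrating neurons, stood at 1546 ± 193 CPM in ciliary-like nuclei and at 583, 410 and 291 CPM in BC, RGC and AC. Because neurons were far more numerous, ciliary-like nuclei held only 6.57% of its UMIs and BC held 46.5%.

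The sequences just upstream of Fbln1, Reln and Vcan are shown as examples from the genes that were highest in ciliary-like nuclei. The members were chosen with earlier results of these data known, so this shared source was not independent of the list. The study also names Fbln1 and reelin among genes raised in its saline-specific Muller population. Of the 39 genes, 29 had an entry in the RefSeq promoter table (GRCm38.p6), among them 10 that were highest in ciliary-like nuclei. Each sequence holds the 250 bases before the gene's first listed start, 5′ to 3′ on the gene's strand, and capitals mark the E-box CACGTG and the GC box GGGCGG on either strand. They lie at chr15:85205699-85205948 (plus strand) for Fbln1, chr5:22344706-22344955 (minus strand) for Reln and chr13:89742513-89742762 (minus strand) for Vcan.
Fbln1: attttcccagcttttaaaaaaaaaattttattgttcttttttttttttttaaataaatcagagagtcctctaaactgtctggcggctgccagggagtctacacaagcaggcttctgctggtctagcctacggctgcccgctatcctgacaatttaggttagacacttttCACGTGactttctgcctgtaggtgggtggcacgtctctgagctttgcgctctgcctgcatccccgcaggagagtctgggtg
Reln: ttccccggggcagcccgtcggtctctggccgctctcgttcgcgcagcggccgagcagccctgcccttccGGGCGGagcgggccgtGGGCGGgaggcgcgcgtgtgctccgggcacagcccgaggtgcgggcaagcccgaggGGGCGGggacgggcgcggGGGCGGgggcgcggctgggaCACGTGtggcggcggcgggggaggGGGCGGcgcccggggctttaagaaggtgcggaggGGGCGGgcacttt
Vcan: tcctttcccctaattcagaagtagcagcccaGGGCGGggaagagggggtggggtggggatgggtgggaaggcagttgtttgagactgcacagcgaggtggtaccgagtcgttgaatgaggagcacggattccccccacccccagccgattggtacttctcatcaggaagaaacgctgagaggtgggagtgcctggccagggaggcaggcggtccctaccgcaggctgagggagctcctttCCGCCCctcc

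The E-box was found in 2 of the 29 windows, those of Fbln1 and Reln. This is near the share over all genes, since 6.05% of 27025 promoter windows of the same length held it. Both are among the 3 windows shown, so these overstate how common it was in the 10 ciliary-like genes with an entry. A GC box was found in 7 of the 10 ciliary-like genes with an entry and in 19 of the 29 genes, against 32.9% of all windows. The TEAD motif GGAATG and the AP-1 motif TGANTCA were in 0 of the 10 genes, against 12.6% and 6.87% of all windows, and the TATA box TATAAA was in 0 of 10, against 13.0%. All motifs were searched on both strands, and none of them contains another. The GC content of the 3 windows differed, at 46.4% for Fbln1, 80.0% for Reln and 62.4% for Vcan. A match is a run of letters, not a bound site.

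The number of ciliary-like nuclei differed between libraries, which sets the scale of any comparison of the Muller class. They made up 20.2%, 21.8% and 11.3% of the Muller class in saline replicates 1, 2 and 6, and 1.87%, 1.2% and 13.1% in IL-27 replicates 4, 5 and 10. Their numbers were 231, 220 and 100 nuclei with saline, against 15, 10 and 97 with IL-27. IL-27 replicate 10 thus lay within the saline range, and its exact (Clopper-Pearson) 95% interval of 10.7% to 15.7% overlapped the 9.30% to 13.6% of saline replicate 6. The mean share was 17.8% ± 5.66 (SD, n = 3) with saline and 5.38% ± 6.68 (n = 3) with IL-27. This difference of -12.4 percentage points did not pass a two-sided exact permutation test over libraries (p = 0.2), in which 3 against 3 cannot go below 0.1. As a share of all retained nuclei the groups did not overlap (2.12% ± 0.845 and 0.468% ± 0.561, n = 3 each), and the exact permutation p was 0.1, the smallest that this design allows. The separation rested on 100 of 8699 nuclei (1.15%) in saline replicate 6 against 97 of 8699 (1.12%) in IL-27 replicate 10. The genes that chose these nuclei were those of the study's saline-specific population, so the direction of the difference was not independent of that choice.

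**Figure D2:**
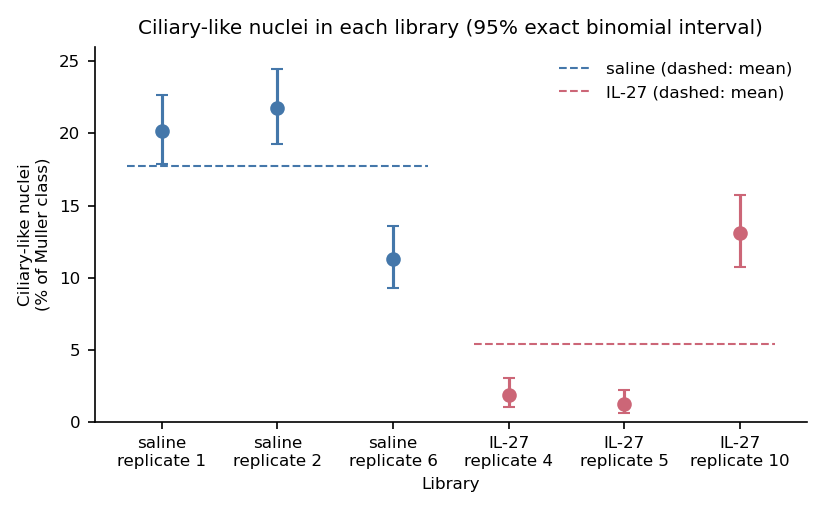
Ciliary-like nuclei as a percentage of the Muller class (y axis) in each of the 6 libraries (x axis), with exact binomial 95% intervals that cover counting error only and dashed group means. Saline replicates 1 and 2 lie near 20%, IL-27 replicates 4 and 5 below 2%, and saline replicate 6 and IL-27 replicate 10 overlap between 10.7% and 13.6%.

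Ciliary-like nuclei supplied most Muller-class UMIs of several genes. In the saline libraries they gave 98.1% of the 2902 Fbln1 UMIs of the class (exact binomial 95% interval 97.5% to 98.5%), although they were 11.3% to 21.8% of its nuclei in these libraries. They gave 97.5% of Fbln2, 96.5% of Reln, 94.7% of Ltbp2, 88.3% of Vcan, 88.0% of Nid2, 80.4% of Sned1 and 80.0% of Fbln5 UMIs there. The share was 72.0% for Fbn1, 63.6% for Fbn2 and 61.1% for Ltbp1, the remainder coming from the other Muller nuclei. At the other end, they gave 0.330% of Lama1, 1.53% of Fn1 and 9.15% of Efemp1 UMIs. In sums over the whole class, fewer nuclei of a type and less RNA per nucleus cannot be told apart. The number of ciliary-like nuclei and the levels within them are therefore given separately.

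IL-27 was then compared with saline in the Muller class with the ciliary-like nuclei included. No gene of the 39 passed an adjusted p of 0.05. Of the 30 genes that passed the filter on low counts, edgeR's quasi-likelihood test called 0, beside 0.0287% of all 13961 genes tested. At an unadjusted p under 0.05, 12 of the 30 were lower and 2 higher with IL-27, beside 5.10% of all genes lower and 4.06% higher. DESeq2 called 0 of the 30 and put 8 under an unadjusted p of 0.05, beside 5.70% of all genes. The median log2 fold change was -0.25 over the 30 genes and 0.00 over all genes. The 12 lower genes were Nid2, Hspg2, Fbln2, Fbln5, Fbln7, Fbn1, Fbn2, Ltbp2, Ltbp3, Sned1, Vcan and Reln. By group, 4 of 5 tested fibrillins and latent TGF-beta binding proteins, 3 of 6 fibulins and 0 of 7 laminin chains were among them. Nid2, Fbln2, Fbln5 and Ltbp2 passed the filter only with the ciliary-like nuclei, of which every saline library held more than any IL-27 library. They were thus likely to enter only as lower genes, so the count of 12 is not independent of that difference in number. Lama4, Lamc3, Nid1, Ltbp4, Thbs1, Thbs2, Thbs4, Postn and Bcan were too low to be tested.

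The gene closest to the threshold was Ltbp2. Its level was 34.6, 36.2 and 25.8 CPM in saline replicates 1, 2 and 6 and 2.35, 0.264 and 6.85 CPM in IL-27 replicates 4, 5 and 10. Every IL-27 library lay below every saline library, the log2 fold change was -3.39 (SE 0.48), and the adjusted p was 0.0836 by edgeR and 0.0529 by DESeq2. Sned1 stood at 485, 513 and 339 CPM with saline and at 114, 72.9 and 255 CPM with IL-27. Its groups did not overlap either, with a log2 fold change of -1.59 (SE 0.37, edgeR adjusted p = 0.208). Vcan stood at 117, 140 and 68.7 CPM with saline and at 17.0, 15.1 and 59.8 CPM with IL-27. IL-27 replicate 10 came close to saline replicate 6 here, and the log2 fold change was -1.84 (SE 0.45, edgeR adjusted p = 0.225).

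Fbln1 and Reln followed IL-27 replicate 10 more closely. Fbln1 was 220, 283 and 154 CPM with saline, and 2.05, 3.70 and 164 CPM with IL-27. In IL-27 replicates 4 and 5 it was thus far below every saline library, whereas replicate 10 lay within the saline range, and the log2 fold change of -1.98 had an SE of 1.03 (edgeR adjusted p = 0.634). Reln was 257, 302 and 165 CPM with saline and 23.2, 20.9 and 176 CPM with IL-27. Its log2 fold change was -1.73 (SE 0.66, edgeR adjusted p = 0.467). Nid2 was 18.3, 28.9 and 7.42 CPM with saline and 0.293, 2.11 and 13.1 CPM with IL-27, with a log2 fold change of -1.87 (SE 0.74, edgeR adjusted p = 0.482). Fbn1 stood at 159, 168 and 149 CPM against 36.7, 42.5 and 154 CPM, with a log2 fold change of -1.03 (SE 0.43, edgeR adjusted p = 0.503). In all 4 of these genes, as in the ciliary-like share, replicate 10 was the highest of the IL-27 libraries. Markers of other cells were also summed in the Muller class. The summed level of 8 fibroblast markers was 95.6 to 145 CPM with saline and 14.8 to 119 CPM with IL-27, with Lum at 0. These ranges overlapped, since IL-27 replicate 10 stood at 119 CPM. Without the ciliary-like nuclei this sum was 10.8 to 14.9 and 12.3 to 17.0 CPM. The sum of 11 retinal pigment epithelium markers was 24.5 to 41.5 CPM with saline and 11.4 to 18.4 CPM with IL-27, without overlap, and 13.3 to 39.2 and 10.4 to 16.7 CPM without the ciliary-like nuclei. The sum of 10 Muller markers overlapped in the whole class (6452 to 7462 and 6284 to 7250 CPM) and did not overlap without the ciliary-like nuclei (7360 to 7935 and 6733 to 7302 CPM). The sum of 10 rod markers overlapped with them (433 to 493 and 259 to 674 CPM) and without them (423 to 444 and 257 to 605 CPM). IL-27 replicate 10 had the highest rod sum in both. The part of these markers in the results was not tested.

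Leaving out IL-27 replicate 10 changed the calls. Without it, edgeR called 10 of the 30 genes, 9 lower and 1 higher, beside 2.98% of all 14270 genes tested. The 9 were Fbln1 (log2 fold change -6.17, SE 0.34, adjusted p = 2.06e-05), Fbn1 (-1.96), Reln (-3.41), Ltbp2 (-4.61), Sned1 (-2.21), Vcan (-2.72), Fbln5 (-2.37), Nid2 (-3.82) and Fbln2 (-3.02), all at an adjusted p of 0.0231 or less. Of these, Fbln1, Fbln2, Fbln5, Nid2 and Ltbp2 passed the filter on low counts only with the ciliary-like nuclei when all 6 libraries were used. The IL-27 libraries that remained held 15 and 10 ciliary-like nuclei, against 231, 220 and 100 with saline. Lower calls in genes concentrated in these nuclei cannot be told apart from that difference in number. Fn1 was the higher gene (log2 fold change 0.74, SE 0.15, adjusted p = 0.0275). Leaving out any of the other 5 libraries gave 0 calls. Without the filter on low counts edgeR called 7 of 38 genes, all lower (Sned1, Fbn1, Reln, Ltbp2, Fbln5, Vcan and Nid2), beside 1.24% of 23977 genes.

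The comparison was repeated without the ciliary-like nuclei. In the other Muller nuclei 25 of the 39 genes were tested and edgeR called 0, beside 0.0370% of 13523 genes, and DESeq2 called 0. At an unadjusted p under 0.05 there was 1 lower gene (Hspg2), beside 1.92% of all genes, and 3 higher genes (Fbn2, Ltbp1 and Tnc), beside 3.11%. By DESeq2, 2 genes were under an unadjusted p of 0.05, beside 2.51% of all genes. The median log2 fold change was -0.02 over the 25 genes. Fbln1, Fbln2, Fbln5, Nid2 and Ltbp2 passed the filter only with the ciliary-like nuclei, so both definitions are compared over the 25 genes tested in each. The 8 of these that were highest in ciliary-like nuclei had a median log2 fold change of -0.77 with these nuclei and 0.00 without them. The 17 other genes had a median of 0.01 with them and -0.05 without them. The genes were split by their level in the nuclei that were then left out, and every saline library held more of these nuclei than any IL-27 library. A shift of the 8 toward 0 was therefore largely built into the split, and its cause was not tested.

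**Figure D3:**
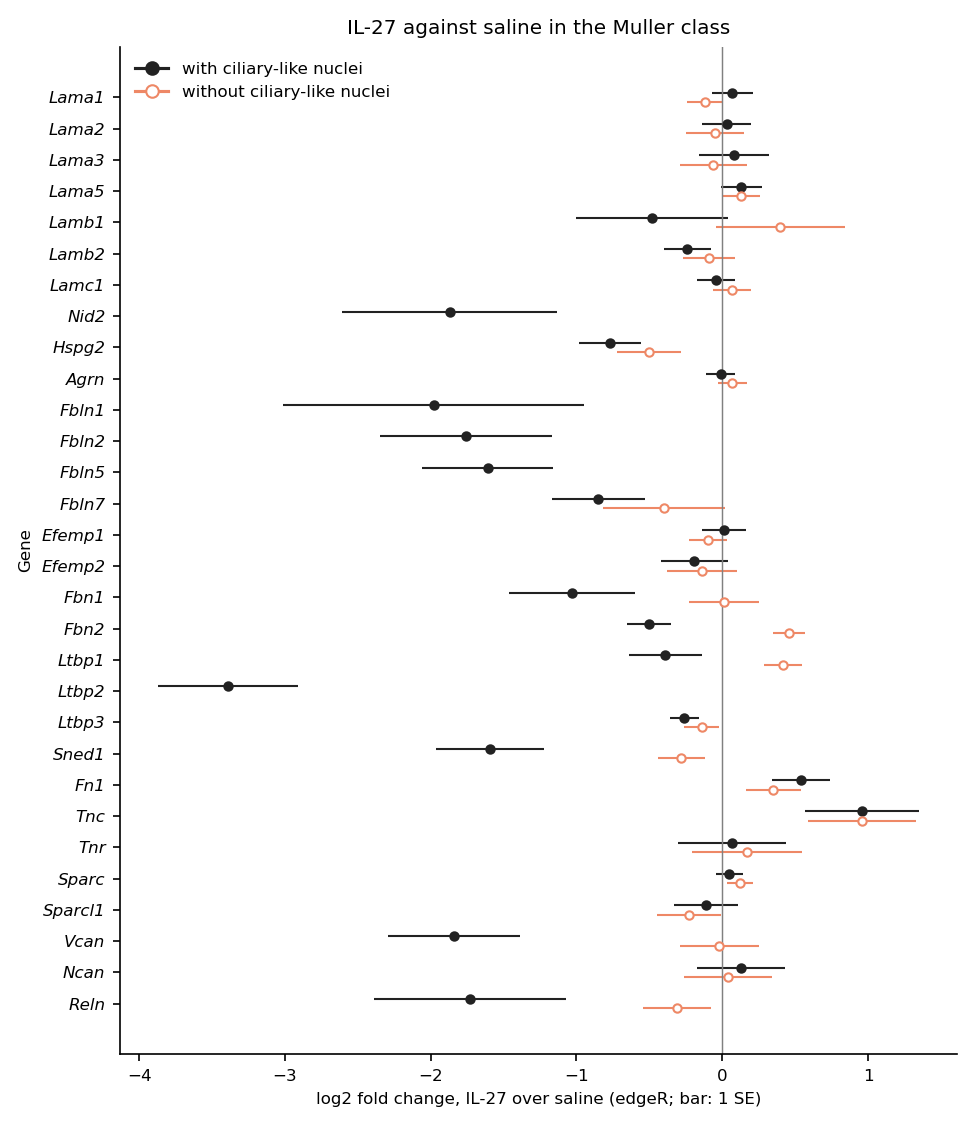
Log2 fold change of IL-27 over saline (x axis, edgeR, bars of 1 SE) for the 30 genes tested in the Muller class (y axis), with ciliary-like nuclei (filled) and without them (open, where 25 genes were tested). Reln, Vcan and Sned1 lie far below 0 as filled points and between -0.31 and -0.02 as open points, Ltbp2, Fbln1 and Nid2 have filled points only, Fbn2 and Ltbp1 have filled points below 0 and open points above it, and Tnc is at 0.96 in both.

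Fbn2 and Ltbp1 changed sign between the 2 definitions of the class. Fbn2 was 270, 283 and 194 CPM with saline and 160, 162 and 197 CPM with IL-27 in the whole class, a log2 fold change of -0.50 (SE 0.15, edgeR adjusted p = 0.327). In Muller nuclei without the ciliary-like it was 111, 97.8 and 108 CPM with saline and 151, 153 and 130 CPM with IL-27. There every IL-27 library lay above every saline library, with a log2 fold change of 0.46 (SE 0.11, edgeR adjusted p = 0.506). Ltbp1 was 116, 122 and 127 CPM with saline and 187, 128 and 173 CPM with IL-27 without the ciliary-like nuclei, a log2 fold change of 0.42 (SE 0.13, edgeR adjusted p = 0.884), against -0.39 (SE 0.25) with them. Neither difference passed the adjusted threshold.

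Tnc, Fn1 and Hspg2 kept their direction in both definitions. Tnc was 3.23, 2.71 and 2.74 CPM with saline and 7.16, 6.42 and 3.13 CPM with IL-27 without the ciliary-like nuclei, on 90 UMIs in all. Replicate 10 was again close to saline, and the log2 fold change was 0.96 with a SE of 0.37 (edgeR adjusted p = 0.964). Fn1 was 33.9, 40.6 and 26.8 CPM with saline and 49.8, 45.7 and 32.7 CPM with IL-27, and its log2 fold change was 0.35 (SE 0.19). Hspg2 was 10.8, 12.5 and 12.2 CPM with saline and 9.25, 9.09 and 6.26 CPM with IL-27, with no overlap and a log2 fold change of -0.50 (SE 0.22, edgeR adjusted p = 0.964). The 5 genes whose values follow had a log2 fold change of 0.12 or less in size: Efemp1 at -0.10 (SE 0.13), Lama1 at -0.12 (SE 0.12), Sparc at 0.12 (SE 0.09), Agrn at 0.07 (SE 0.10) and Lamc1 at 0.07 (SE 0.13). Sned1, at 105, 91.1 and 105 CPM with saline and 105, 71.4 and 69.5 CPM with IL-27, had a log2 fold change of -0.28 (SE 0.16, edgeR adjusted p = 0.964) in these nuclei.

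**Figure D4:**
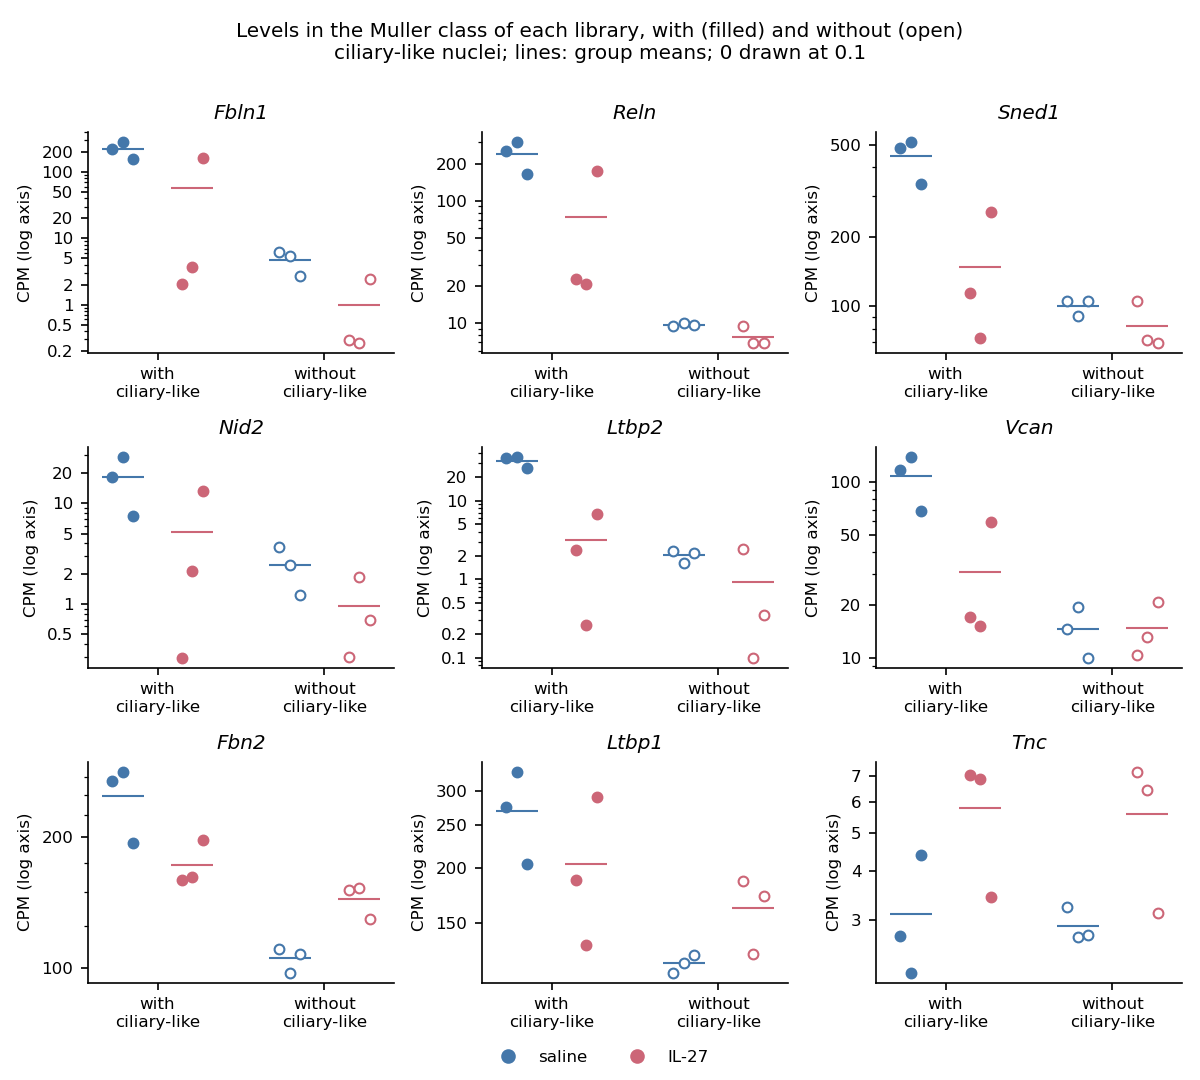
Level of 9 genes (CPM, log axis, a separate scale for each gene) in the Muller class of each library, with ciliary-like nuclei (filled points) and without them (open points), for saline and IL-27. Lines are group means and a level of 0 is drawn at 0.1. For Fbln1 and Reln 1 IL-27 point, replicate 10, lies among the filled saline points, and without ciliary-like nuclei the levels of Reln are 6.95 to 10.0 CPM in all 6 libraries.

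Within the ciliary-like nuclei themselves a comparison was limited by their number, since IL-27 replicates 4 and 5 had 14 and 7 summed nuclei. These nuclei were therefore described and not tested. The summed level of the 3 genes that chose the population was 1820 and 1636 CPM in those 2 libraries, 4357 CPM in replicate 10 and 5391 to 6210 CPM in the saline libraries. IL-27 replicate 10, with 89 summed nuclei, could be set beside saline replicate 6, with 91. Fbln1 was 1578 CPM in the former and 1680 CPM in the latter, and Reln was 1666 and 1629 CPM. Fbn1 was 769 CPM against 960 CPM, and Ltbp1 was 1314 CPM, against 915 to 1201 CPM in the 3 saline libraries. Ltbp2 was 62.7 CPM on 20 UMIs in IL-27 replicate 10 (exact Poisson 95% interval 38.3 to 96.9 CPM), against 246 CPM in saline replicate 6 (196 to 305 CPM), 222 CPM in replicate 1 and 190 CPM in replicate 2. Vcan was 402 CPM against 645 to 664 CPM, Sned1 was 1766 CPM against 2297 to 2538 CPM, and Fbn2 was 778 CPM against 1008 to 1144 CPM in the saline libraries. In the other direction Lama2 was 157 CPM on 50 UMIs (116 to 207 CPM) against 39 to 66.8 CPM, Lama1 was 34.5 CPM on 11 UMIs (17.2 to 61.7 CPM) against 1.22 to 3.92 CPM, and Ltbp3 was 169 CPM against 120 to 159 CPM. Of the 39 genes, 13 lay above every saline library in replicate 10, 14 within their range and 12 below every one. The same count was not made over all genes, so these numbers have no background. Some of them rested on very few UMIs in replicate 10, such as Lama4 above on 3 UMIs and Thbs2 below on 0. The intervals cover counting error only, and 1 library cannot show a difference between treatments.

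In the other 10 cell types that were tested, 147 gene and cell type pairs of the set passed the filter. By edgeR 0 pairs passed the adjusted threshold, beside 0.00998% of 90191 gene and type pairs over all genes, and at an unadjusted p under 0.05 there were 8 lower and 6 higher pairs, beside 1.76% and 1.70% of all pairs. DESeq2 called 1 pair, Fbln1 in rods, and put 8 pairs under an unadjusted p of 0.05, beside 1.20% of all pairs. Levels in the types where the genes were highest follow for those with the most UMIs and those whose groups did not overlap. Tnr in HC was 3734, 3892 and 3054 CPM with saline and 3641, 3720 and 3811 CPM with IL-27, a log2 fold change of 0.07 (SE 0.10). Lama3 in HC was 398, 347 and 322 CPM with saline and 444, 525 and 375 CPM with IL-27, with overlapping groups and a log2 fold change of 0.34 (SE 0.12, edgeR adjusted p = 0.849). Reln in BC was 497, 614 and 679 CPM against 560, 616 and 534 CPM, with a log2 fold change of -0.05 (SE 0.11). Fn1 was 1346, 1158 and 1232 CPM against 1099, 1173 and 671 CPM in endothelial cells (log2 fold change -0.34, SE 0.24). Ltbp4 in endothelial cells was 53.8, 89.1 and 112 CPM with saline and 137, 114 and 255 CPM with IL-27 on 74 UMIs, with no overlap (log2 fold change 0.93, SE 0.45, edgeR adjusted p = 1). Fbln5 there was 75.4, 0 and 149 CPM against 22.9, 172 and 255 CPM on 71 UMIs, with overlap (log2 fold change 0.89, SE 0.76). Nid1 in pericytes and smooth muscle was 238, 505 and 169 CPM with saline and 607, 513 and 539 CPM with IL-27 on 124 UMIs, which did not overlap but did not pass (log2 fold change 0.83, SE 0.35, edgeR adjusted p = 0.828). Efemp1 in astrocytes, not its highest type, was 60.5, 55.8 and 75.4 CPM with saline and 130, 96.2 and 100 CPM with IL-27, again without overlap (log2 fold change 0.74, SE 0.32, edgeR adjusted p = 0.975). Other pairs outside the highest type did not overlap either, among them Tnr in cones (log2 fold change 0.64), Ltbp1 in BC (-1.06), Vcan in RGC (-0.97) and Lamc1 in AC (-0.24). Pairs without overlap were not counted over all genes.

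Fbln1, at low levels, was lower in value with IL-27 across several neuron types. In rods it was 19.6, 19.6 and 8.40 CPM with saline and 1.18, 2.60 and 6.26 CPM with IL-27. The rod groups did not overlap, on 173 UMIs, and the log2 fold change was -2.16 (SE 0.41, edgeR adjusted p = 0.223). DESeq2 gave -2.20 (SE 0.46, adjusted p = 0.0286), as the 1 gene of 13111 that it called in rods (0.00763%). Without IL-27 replicate 10 edgeR also called Fbln1 in rods (log2 fold change -3.15, SE 0.48, adjusted p = 0.0409), beside 0.0229% of 13114 genes. In BC Fbln1 was 5.23, 5.85 and 3.51 CPM against 0, 0.515 and 2.38 CPM (log2 fold change -2.31, SE 0.57), and in AC it was 4.50, 4.09 and 2 CPM against 0.326, 0.272 and 1.80 CPM (-2.20, SE 0.55), both at an edgeR adjusted p of 1. In cones and RGC it was below the filter, at 0 to 16.5 and 0.224 to 11.6 CPM over the 6 libraries. The other Muller nuclei had 6.22, 5.42 and 2.74 CPM against 0.298, 0.267 and 2.43 CPM. Without the filter on low counts edgeR called Fbln1 in rods, cones, BC, AC and RGC, the only calls of the set in the other cell types, beside 0.0917% of 205999 pairs, and in the other Muller nuclei (log2 fold change -2.39, SE 0.49, adjusted p = 8.53e-04), beside 0.471% of 23555 genes. In all of these types the saline library with the fewest ciliary-like nuclei, replicate 6, had the lowest saline level, and in all but RGC replicate 10 had the highest IL-27 level. Ciliary-like nuclei of the same libraries held 1390, 1486 and 1680 CPM against 193, 245 and 1578 CPM. The part that RNA from ciliary-like nuclei had in the low levels of the other types was not tested.

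**Figure D5:**
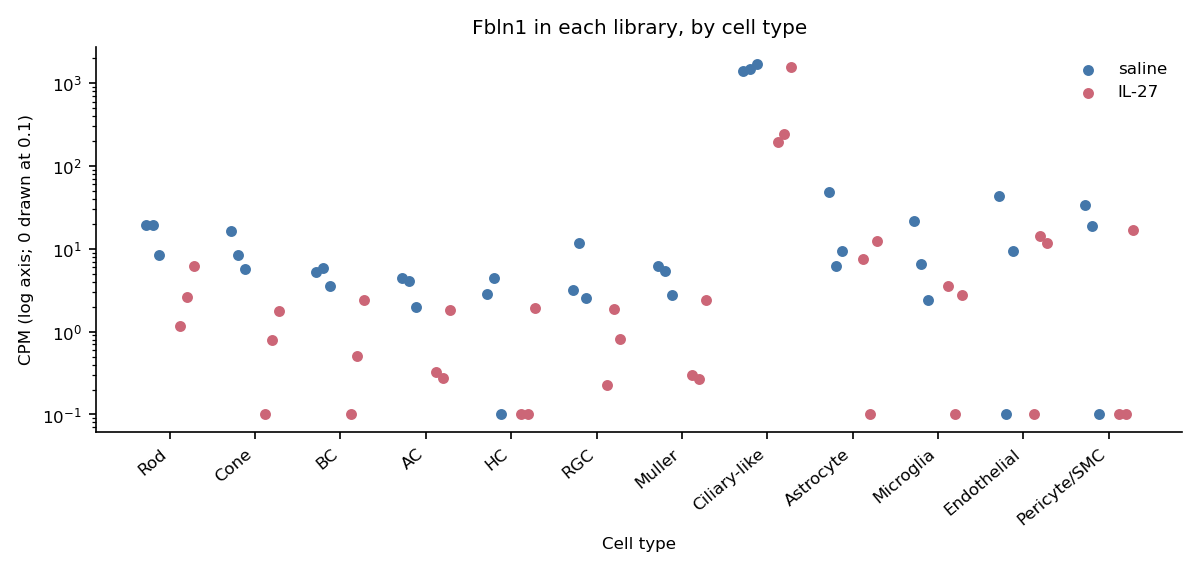
Fbln1 level (CPM, log axis, 0 drawn at 0.1) in each library (points, in the order of replicate number within a group) for 12 cell types. Ciliary-like nuclei lie between 193 and 1680 CPM, all other types at or below 48.4 CPM, and IL-27 points lie below saline points in rods, cones, BC, AC, RGC and the other Muller nuclei.

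The effect of IL-27 was also compared directly between the other Muller nuclei and each of 10 cell types, in a model with cell type, treatment and library. Of 285 gene and pair tests of the set edgeR called 0, beside 0.0227% of 141207 tests over all genes, and 25 were at an unadjusted p under 0.05, beside 4.87% of all tests. Without the filter on low counts 1 was called, Ltbp1, whose log2 fold change in BC minus that in Muller nuclei was -1.45 (edgeR adjusted p = 0.00526), beside 0.0863% of 246757 tests.

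Other genes of these pathways were read from 3 lists of receptors, of proteases and their inhibitors, and of crosslinkers and linkers, 89 genes in all. In Muller nuclei without the ciliary-like, 0 of 25 tested receptor genes, 1 of 24 protease and inhibitor genes and 0 of 16 crosslinker and linker genes passed the threshold, and the same counts (of 25, 24 and 19) were found with the ciliary-like nuclei. Over all genes the share called was 0.0370% without these nuclei and 0.0287% with them. The 1 gene was Adamts19, a secreted metalloproteinase gene. It was 80.2, 91.6 and 37.7 CPM with saline and 390, 282 and 452 CPM with IL-27 without the ciliary-like nuclei. Every IL-27 library lay far above every saline library, including replicate 10, and the log2 fold change was 2.41 (SE 0.26, edgeR adjusted p = 0.00391). With the ciliary-like nuclei it was 2.56 (SE 0.26, edgeR adjusted p = 0.0174). This call was lost without saline replicate 1 in both definitions, and with the ciliary-like nuclei also without saline replicate 2 or IL-27 replicate 4. At an unadjusted p under 0.05, 5 of 19 crosslinker and linker genes were lower and 0 higher with the ciliary-like nuclei, and 0 either way without them. Of 24 protease and inhibitor genes, 6 were higher and 1 lower with them, and 4 and 0 without them. Of 25 receptor genes, 3 were higher and 1 lower with them, and 2 and 0 without them. Over all genes 4.06% were higher and 5.10% lower with them, and 3.11% and 1.92% without them. In the other 10 cell types 0 of 370 tested gene and type pairs of these lists passed, and an unadjusted p under 0.05 was reached by 15 that were higher and 3 that were lower, beside the 1.70% and 1.76% of all pairs given above.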

How the data were processed

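Nuclei from 6 rd10 retina libraries were counted by the authors with Cell Ranger, and the deposited matrices hold whole UMI counts per gene and nucleus. The submitters' processing notes name Cell Ranger 9.0.1 and Seurat 5.2.1, whereas the matrix headers name Cell Ranger 8.0.1. The genome build was not given in the sources used here. Gene positions and promoters came from GRCm38 annotations, matched by gene ID and symbol.

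Barcodes were kept above 500 UMIs, from 200 genes upward and below 5% mitochondrial UMIs, the limits that the study's methods give, and 4272 were removed as doublets by the highest Scrublet scores (8% expected, less the estimated share of same-type doublets). Nuclei were clustered by the Louvain method (scanpy 1.11.5, igraph 0.11.9; 2000 variable genes without the 39 members, 25 components, 20 neighbours, resolution 1) and named from marker lists. The Muller class was clustered again (4000 genes, 10 components, resolution 0.5) and its cluster highest in Frmpd4, Csmd3 and Nox4 was called ciliary-like. The UMI counts were then summed per library and type, leaving out nuclei whose log2 total lay over 2 scaled median absolute deviations away from its median. Sums of at least 10 nuclei were tested in edgeR 4.0.16 (R 4.3.3; filterByExpr with a minimum count of 10, TMM, quasi-likelihood test, Benjamini-Hochberg adjustment over all genes of a type, threshold 0.05). CPM are counts per 1e6 UMIs of the type's sum in that library. DESeq2 1.42.0, other scalings, other filters, doublets kept, other definitions of the ciliary-like nuclei and leaving out each library were alternatives. Intervals are exact at 95% and cover counting error only.

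The edgeR steps were tested on simulated data: of 200 genes given a log2 change of 1.5 in the Muller class with ciliary-like nuclei, 192 were recovered, with 12 false calls among 13981 genes. Recovery was lowest in pericytes and smooth muscle, at 152 of 200. Every simulated gene had the same dispersion, and the share of ciliary-like nuclei did not vary between simulated libraries. Recovery of genes as variable between libraries as Fbln1 was therefore not measured. Genes named with values were those past the threshold in any fit, Fbln1, Reln, Sned1 and Nid2, which the study names, the 2 with the most UMIs in each gene group, and every gene for its highest type. Ltbp2, Vcan, Fbn2, Tnc, Hspg2 and the genes listed at an unadjusted p under 0.05 were named after their values were seen. The members and lists were chosen with earlier results of these data known.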

Additional observations from a re-analysis of the deposited data

How the results depend on the processing

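No paired analysis was possible because the saline and IL-27 libraries share no replicate numbers. In the Muller class with ciliary-like nuclei, 0 members were called by edgeR, but 7 without the filter on low counts and 0 to 10 when a library was left out, the 10 without IL-27 replicate 10. Without ciliary-like nuclei 0 were called, 1 without the filter and 0 when any library was left out. In the other cell types 0 were called, 1 by DESeq2, 5 without the filter and 0 to 1 with a library left out. For the difference between cell types 0 were called, and 1 without the filter. The highest type was the same for 12 of 39 genes when the share of UMIs replaced CPM. Of the other pathway genes 1 was called with ciliary-like nuclei, 2 by DESeq2, 4 without the filter and 0 to 6 with a library left out, and without ciliary-like nuclei 0 to 1. The causes were not tested. The difference in ciliary-like share ranged from -16.3 to -10.3 percentage points with a library left out.

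Over all genes, 4 were called in the Muller class, 103 by DESeq2, 298 without the filter, 2 at a minimum count of 30 and 0 to 425 with a library left out. Without ciliary-like nuclei 5 were called, 23 by DESeq2, 111 without the filter, 2 with doublets kept and 0 to 10 with a library left out. In the other types together 9 were called, and 189 without the filter.

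Of 447 recomputed log2 fold changes of 16 named genes, 34 turned sign and 12 passed the threshold only in the alternative. With a library left out, the log2 fold change in the Muller class ranged from -0.08 to 0.18 for Lama1, -0.16 to 0.03 for Lamc1, -0.08 to 0.03 for Agrn, -0.13 to 0.16 for Efemp1, -0.19 to 0.43 for Tnr and -0.12 to 0.29 for Ncan. Without ciliary-like nuclei it ranged from -0.06 to 0.16 for Lamc1, -0.23 to 0.05 for Efemp1, -0.37 to 0.21 for Fbn1, -0.12 to 0.54 for Tnr, -0.30 to 0.23 for Vcan and -0.18 to 0.21 for Ncan. With ciliary-like nuclei Efemp1 was -0.02 by library totals, and Tnr was -0.34 with doublets kept. Without them Tnr was -0.32, Vcan 0.19 and Ncan -0.05 with doublets kept, Vcan was 0.08 with all nuclei, and Fbn1 was -0.01 without the filter and -0.05 at another resolution. Depth limits the ciliary-like nuclei of IL-27 replicates 4 and 5 and the vascular types most.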
